A study of Mus musculus with 14 samples.

Results

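The Peg13 imprinted locus on mouse chromosome 15 holds 5 genes, Kcnk9, Trappc9, Peg13, Chrac1 and Ago2, and was followed here by every CTCF and H3K27ac peak from 100 kb outside the outermost gene on either side (mm10, chr15:72401089-73284935). Peaks of the 8 CTCF lists that shared at least 1 bp were merged into sites, and 28 of the 86652 sites of the series lay in this window. They are named S1 to S28 in order along the chromosome. Of these, 10 were called in all 8 lists, 14 in some lists and 4 in 1 list. The locus was selected on the peak calls of day 4: the site at the Peg13 start was called in both K20R lists of that day and in no WT list. That contrast at that site is therefore described without a test. The nearest sites left outside the window ended 38036 bp to its left, called in 2 lists, and began 25945 bp to its right, called in 8 lists.

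The cells were E14Tg2A mouse embryonic stem cells (mESCs), kept on feeder fibroblasts with serum, LIF and the 2i inhibitors. They were WT or carried CTCF-K20R, a CRISPR/Cas9 point mutation that replaces lysine 20 of CTCF by arginine, a residue that cannot be acetylated. CTCF ChIP-seq was performed at day 0, in mESCs, and at day 4, in embryoid bodies (EBs) formed in hanging drops without LIF, with 2 replicates for each genotype and day. H3K27ac, a histone acetylation found at active promoters and enhancers, was assayed in EBs with 1 library per genotype, so its values have no replicate check. The sources do not say from how many clones each genotype came, so clone and genotype cannot be told apart, and p-values measure only the spread between these libraries.

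Peg13 is a non-coding RNA expressed from the paternal allele, and it lies within an intron of Trappc9. Its promoter is a differentially methylated region that is methylated on the maternal allele, and CTCF is known to bind the unmethylated paternal copy, since CpG methylation within the CTCF motif hinders binding. Around it, Kcnk9 codes for a potassium channel, Trappc9 for a subunit of a vesicle tethering complex, Chrac1 for a histone-fold subunit of a chromatin remodelling complex and Ago2 for the slicer argonaute of RNA interference. In brain these neighbours are expressed mostly from the maternal allele. The lists hold no allelic or methylation data, so the alleles were not separated here.

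In the mm10 annotation, Kcnk9 (ENSMUSG00000036760.7) spans chr15:72501089-72546340 and Trappc9 (ENSMUSG00000047921.16) spans chr15:72589620-73061204, both on the minus strand. Peg13 (ENSMUSG00000106847.1) spans chr15:72805600-72810324, also on the minus strand, so that its start is the higher coordinate. Chrac1 (ENSMUSG00000068391.8) lies at chr15:73090392-73097554 on the plus strand, and Ago2 (ENSMUSG00000036698.11) at chr15:73095844-73184935 on the minus strand. Of the 28 sites, 9 lay inside Trappc9 besides the 2 in Peg13, whose span is also within Trappc9. A further 4 lay inside Ago2, 1 inside Kcnk9 and 5 inside Ptk2, the kinase gene at the right edge of the window. By the summit, 19 sites were intronic, 2 exonic (both in Peg13) and 7 between genes. The widest stretch without a site was 158 kb, within Trappc9 after S12.

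The DNA at the Peg13 start is shown first because the locus was chosen for the CTCF site there, and no table here relates the sequence to the calls. S11 covered chr15:72809785-72810508 over 724 bp, contained the annotated Peg13 start and had its summit in the Peg13 exon, 237 bp downstream of the start. The 300 bases around its summit, chr15:72809937-72810236 on the plus strand, are given with the CTCF motif match in capitals.
S11: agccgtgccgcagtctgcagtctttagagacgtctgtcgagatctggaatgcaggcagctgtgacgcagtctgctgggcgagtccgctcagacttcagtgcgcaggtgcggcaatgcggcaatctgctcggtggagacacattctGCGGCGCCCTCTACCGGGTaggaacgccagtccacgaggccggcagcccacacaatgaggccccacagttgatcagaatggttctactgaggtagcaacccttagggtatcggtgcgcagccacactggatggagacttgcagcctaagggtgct

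The match lay at chr15:72810082-72810100 on the minus strand, 4 bp from the summit, and held 3 CpG dinucleotides. It was found with a 19 bp matrix learned from the strongest WT day 0 peaks, whose consensus was GGCCACCAGGGGGCGCTGG, scored on both strands. A second match on the same strand, ACCCGCTAGATGGCACCAC at chr15:72810366-72810384, held 1 CpG and lay upstream of the Peg13 start. The whole site held 39 CpG. Within 100 bp of its summit it held 13, against a median of 2 over all sites of the series, and 94.1% of all sites held fewer. Among the other sites of the window the highest value was 14, so Peg13 was not the richest in CpG.

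A weaker site, S10, lay in the body of Peg13 at chr15:72809001-72809292, with its summit 1132 bp downstream of the start. It held 10 CpG and no motif match past the threshold. The match is a description of these letters only.

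At the Peg13 start, CTCF peaks were called in all 4 K20R libraries and in 1 of 4 WT libraries. The summit pileup, the number of fragments stacked at the peak's highest point, was solved from the fold enrichment and −log10 p-value of each peak. At day 0 it was 52 and 57 fragments in the K20R replicates. In WT at day 0 no peak was called in replicate 1, and replicate 2 had a pileup of 13. At day 4 it was 36 and 57 in the K20R replicates, and no peak was called in either WT replicate. Both K20R values of day 0 were above the 1 WT value, and at day 4 there was no WT value to compare. The share of all sites with this order was not counted.

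The same site is seen from its rank within each list. Its fold enrichment was at the 69.3 and 73.9 percentile of the K20R lists at day 0 and at the 64.8 and 69.7 percentile at day 4, so it was an ordinary to strong peak in K20R cells. In WT replicate 2 at day 0 it was at the 31.6 percentile. Sites that were called in all 8 lists had a median pileup between 32 and 56 over the libraries, and the K20R values at Peg13 lay near that range. In each of the 8 lists, the lowest pileup called at the lowest local background was 5, so an uncalled WT library had less signal than the caller required, not necessarily none. Local background under S11 was 0.717 to 0.757 in the 5 libraries with a peak, at the lowest level of each list.

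Among the 209 sites of the series that were gained in K20R at day 4, the Peg13 start had the highest mean percentile in the K20R lists, 67.2, and the next site, on chromosome 4, had 46.0. These values come from the contrast that chose the locus and carry no test. S11 remained among the gained sites of day 4 when peaks were limited to a −log10 q of at least 5. The same held when lists were cut to 1 length and when sites were merged from summits. S11 could not drop out when 1 library of that day was left out, since fewer lists then have to meet the rule. At day 0 it was not counted as gained because of the peak in WT replicate 2. Without that library, S10 and S11 were both called in K20R and not in WT.

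S10 showed a similar order at lower values. Its pileup was 15 and 24 in the K20R replicates at day 0 and 9 in K20R replicate 2 at day 4. WT replicate 2 at day 0 had 8, and the other libraries had no peak. With a −log10 q of at least 5, S10 was the 1 site of the window gained in K20R at day 0.

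**Figure D1:**
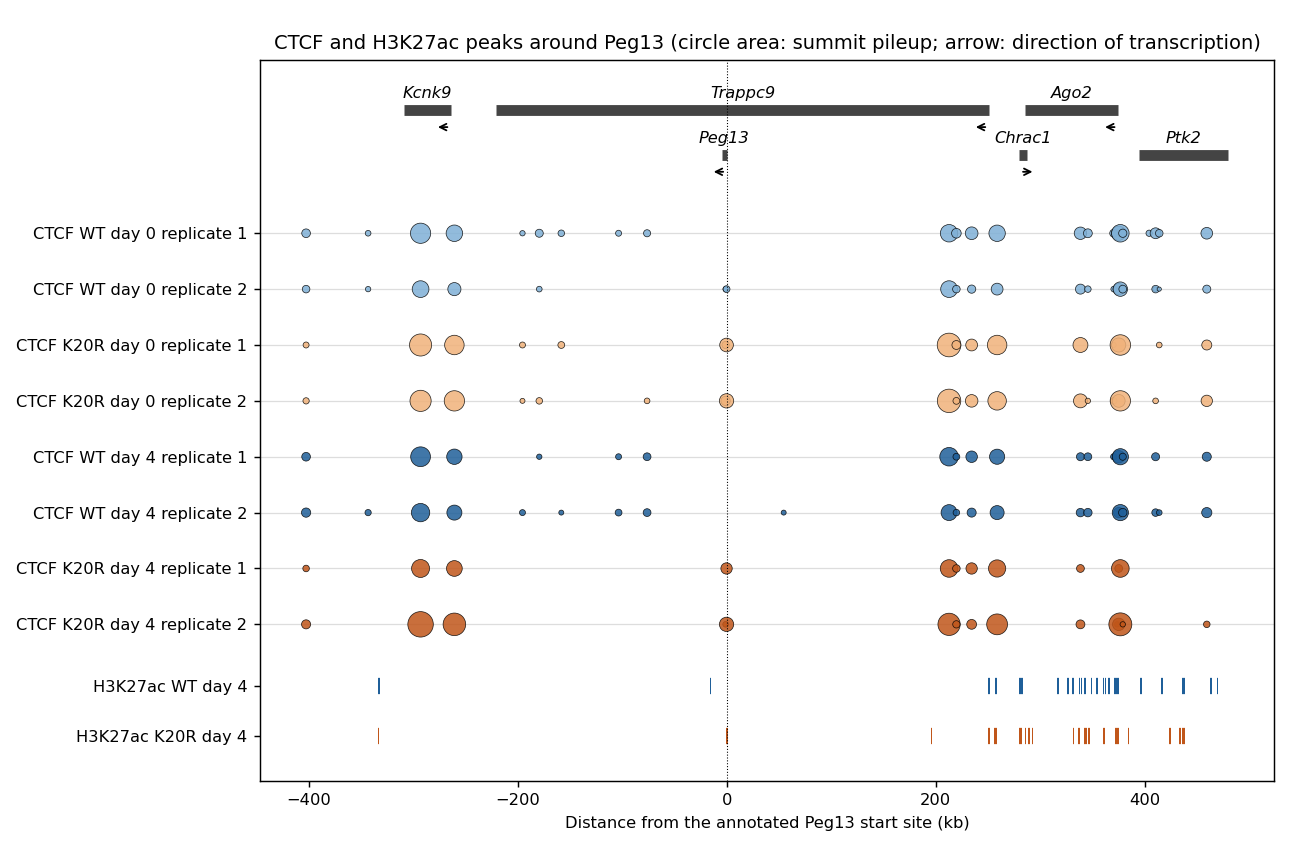
Peaks of the 8 CTCF lists and the 2 H3K27ac lists (rows) by distance from the annotated Peg13 start in kb, with genes as bars above and the area of each circle proportional to the summit pileup. CTCF at 0 kb is called in all 4 K20R rows and in 1 WT row, while the strongest sites beside Kcnk9, Trappc9 and Ago2 are called in all 8.

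H3K27ac at the Peg13 start was also listed in K20R and not in WT. The K20R list held a peak at chr15:72809871-72810264, inside S11, with a fold enrichment of 3.11 and a −log10 q of 1.72, at the 39.6 percentile of its list. The nearest WT peak of the Trappc9 body lay at chr15:72793841-72795142, with a fold enrichment of 3.01, and had no K20R counterpart. Over the genome, 46.9% of K20R H3K27ac peaks had no overlapping WT peak and 36.9% of WT peaks had no overlapping K20R peak, so a peak in 1 list alone was common. Of the 209 gained sites, 14 (6.70%) carried H3K27ac in K20R alone, against 2078 (5.43%) of the 38295 sites called in all 4 libraries at day 4. The Peg13 peak was below a −log10 q of 5 and is not counted under that limit.

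Because Peg13 is an imprinted promoter, the start sites of 15 other imprinted genes were examined in the same way. CTCF sites lay within 3 kb of 11 of them. None of the 11 was gained or lost in K20R at day 4, 5 were called in all 4 libraries of that day (Peg3, Peg10, Snrpn, Zrsr1 and Peg12), and the other 6 were called in 1 list each. No CTCF site of these 11 carried H3K27ac in 1 genotype alone. Of the 11, only those 5 were called in both K20R lists of day 4, as a gained site must be. Over the genome 0.536% of sites called in both K20R lists were gained. With so low a share, 0 of 5 does not set Peg13 apart from other imprinted promoters.

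Peg10, a paternally expressed gene derived from a retrotransposon, came closest in its values. Its pileup was 54 and 38 in WT and 100 and 104 in K20R at day 0, and 25 and 30 in WT and 59 and 113 in K20R at day 4. The genotypes did not overlap on either day, but WT had a peak in every library. How many of all sites separate in this way was not counted. Zrsr1 had 24 and 26 in WT and 28 and 34 in K20R at day 4. At Peg12 the WT values of 60 and 62 lay just at or below the K20R values of 62 and 102. Peg3, a zinc-finger gene, had 11 and 13 in WT and 10 and 20 in K20R, so the genotypes overlapped. Peg13 was thus the 1 imprinted start examined at which CTCF was called in both K20R and in no WT library of day 4, which is the property it was chosen for.

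**Figure D2:**
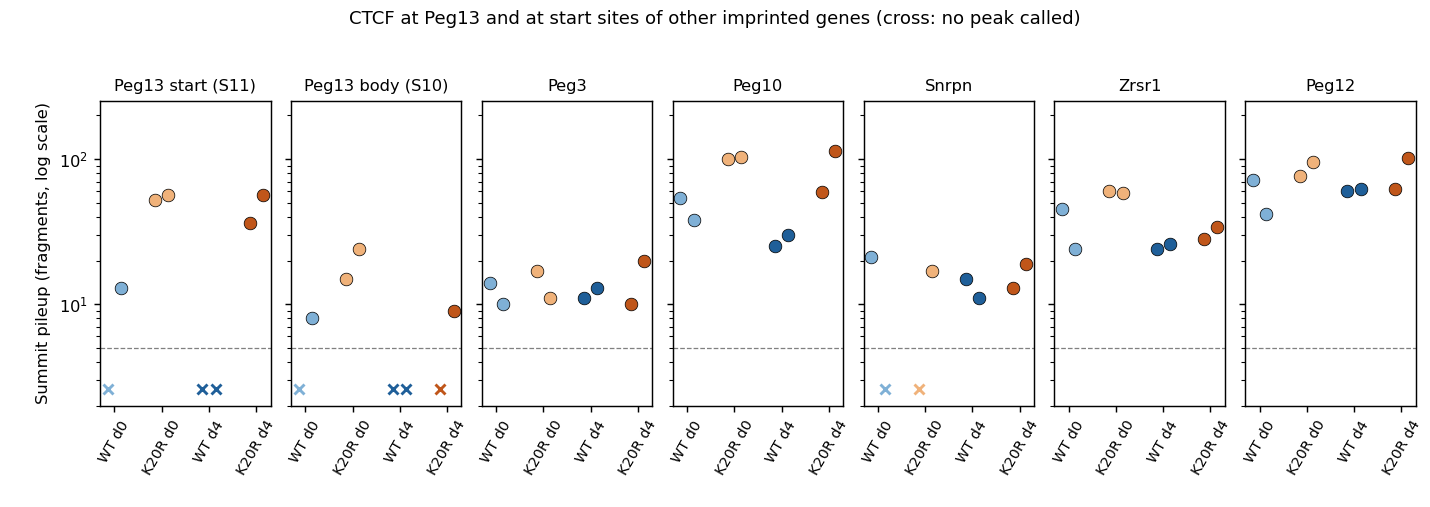
Summit pileup in fragments (log axis) of each CTCF library at the Peg13 start, in the Peg13 body and at start sites of 5 other imprinted genes with a peak in at least 6 lists, by genotype and day, where d0 and d4 are day 0 and day 4. Crosses mark libraries with no called peak and the dashed line marks a pileup of 5; at the Peg13 start 3 of 4 WT libraries are crosses and the K20R libraries lie between 36 and 57.

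The next question was whether the other sites of the locus were called as often in K20R as in WT. Without the Peg13 start, the window held 23 and 20 peaks in the WT lists and 16 and 18 in the K20R lists at day 0. At day 4 it held 18 and 21 in WT and 10 and 14 in K20R. The means were 21.5 ± 2.12 (SD, n = 2) in WT and 17.0 ± 1.41 in K20R at day 0, and 19.5 ± 2.12 in WT and 12 ± 2.83 in K20R at day 4. The genotypes did not overlap on either day. A two-sided exact permutation test gave p = 0.33 on both days, which is the smallest p that 2 libraries against 2 allow. The whole lists moved in the same way at day 4, with 61088 and 61436 peaks in WT and 41360 and 47463 in K20R. At day 0 they held 77657 and 52698 peaks in WT and 52076 and 51905 in K20R, so WT replicate 2 lay close to K20R. With lists cut to 1 length the day 4 difference fell from -7.5 to -2.5 peaks, and the day 0 difference from -4.5 to -0.5.

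A site was counted as lost when both WT lists of the day held it and no K20R list did, and as gained in the opposite case. At day 0, 2 of 18 window sites were lost, beside 7.69% of sites over the genome, and 0 of 15 were gained, beside 0.426%. At day 4, 4 of 16 were lost, beside 18.8%, and 1 of 11 was gained, the Peg13 start, beside 0.536%. The shares of lost sites in the window, 11.1% and 25%, are close to the genome background and rest on few sites.

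The sites lost at day 4 were S8 and S9 inside Trappc9, S18 inside Ago2 and S26 inside Ptk2, all in introns. S8 had a pileup of 10 and 13 in WT at day 4, and at day 0 a peak of 10 in WT replicate 1 alone. S9 had 17 and 17 in WT at day 4, and at day 0 it was called in WT replicate 1 with 14 and in K20R replicate 2 with 9. S18 had 17 and 20 in WT at day 4, and 22 and 12 in WT and 8 in K20R replicate 2 at day 0. S26 had 18 and 16 in WT at day 4, and 33 and 16 in WT and 9 in K20R replicate 2 at day 0. All 4 had pileups of at most 20 in WT at day 4. The median pileup of the WT lists of that day was 24 and 24, and 19.5 and 20 over their window peaks. S9, S18 and S26 had a K20R peak at day 0 and none at day 4.

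At day 0 the lost sites were S2, left of Kcnk9, and S23, upstream of Ago2. S2 had 9 and 8 in WT at day 0 and 11 in WT replicate 2 at day 4. S23 had 19 and 17 in WT at day 0, 14 and 20 in WT at day 4 and 8 in K20R replicate 2 at day 4. Leaving out WT replicate 1 at day 4 raised the sites counted as lost on that day from 4 to 9, and leaving out K20R replicate 2 or WT replicate 2 at day 0 raised those lost at day 0 from 2 to 5 or 4. Leaving out K20R replicate 1 at day 4 raised the gained sites from 1 to 3 by adding S10 and S20. Leaving out 1 library can only keep or raise these counts, since fewer lists then have to meet the rule. S8, S9, S18 and S26 therefore stayed lost at day 4 by construction. With lists cut to 1 length, S9 and S18 remained lost at day 4, and at day 0 neither S2 nor S23 did, S26 being the 1 site lost. Under the −log10 q limit of 5, S18 and S23 were the sites lost at day 0.

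**Figure D3:**
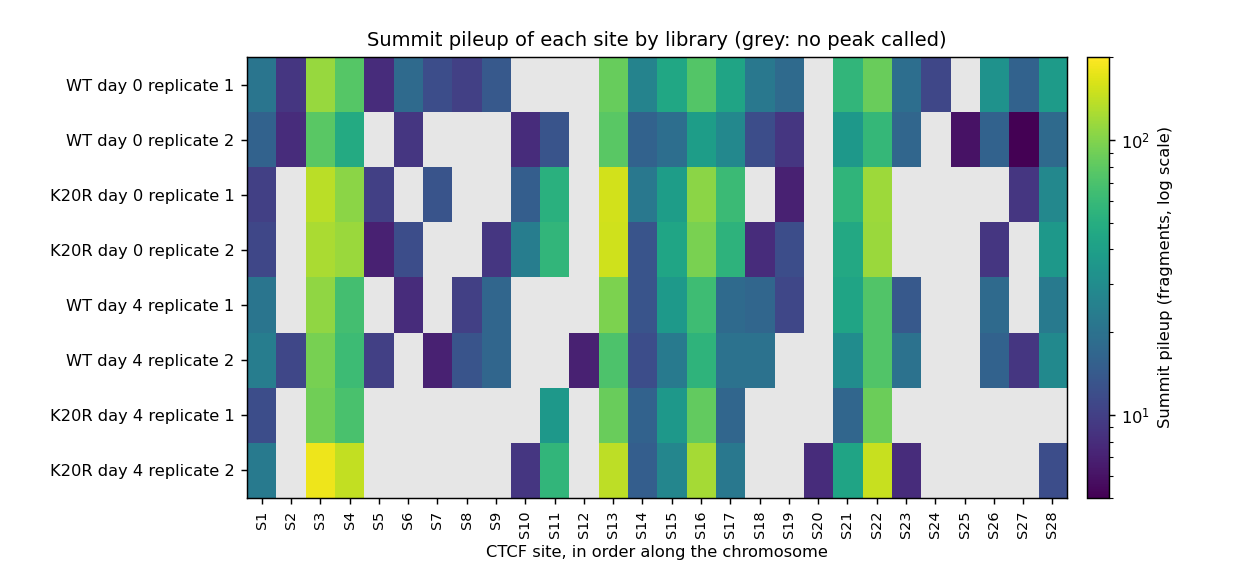
Summit pileup of the 28 CTCF sites (columns, in order along the chromosome) in each of the 8 libraries (rows), on a log color scale from 5 to 200 fragments, with grey where no peak was called. S11, the Peg13 start, is filled in the 4 K20R rows and 1 WT row, whereas S8, S9, S18 and S26 are filled in both WT rows of day 4 and grey in both K20R rows.

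The motif matches of kept and lost sites are shown to place the Peg13 match among its neighbours. Each line gives the match in capitals with 10 bases on each side, on the strand of the motif. S4 lay 3242 bp upstream of the Kcnk9 start, S16 upstream of Trappc9 and S22 upstream of Ago2, and all were called in all 8 lists. S18, S23 and S26 were lost on 1 of the days.
S11 (Peg13, chr15:72810082-72810100, minus): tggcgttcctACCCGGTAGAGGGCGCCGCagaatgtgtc
S4 (chr15:72549569-72549587, plus): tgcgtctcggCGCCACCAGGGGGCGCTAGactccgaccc
S16 (chr15:73069037-73069055, plus): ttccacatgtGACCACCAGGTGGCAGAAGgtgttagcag
S22 (chr15:73187012-73187030, minus): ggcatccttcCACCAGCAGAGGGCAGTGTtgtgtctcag
S18 (chr15:73155945-73155963, plus): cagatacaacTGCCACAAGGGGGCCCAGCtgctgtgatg
S23 (chr15:73189312-73189330, minus): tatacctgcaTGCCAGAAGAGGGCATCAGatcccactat
S26 (chr15:73220757-73220775, plus): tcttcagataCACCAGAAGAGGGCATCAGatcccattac

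A match was found in 19 of the 28 sites (67.9%), against 77.4% of all sites of the series. Of the 19, 9 were on the plus strand and 10 on the minus strand, and 5 lay wholly in bases masked as repeats, among them those of S22, S23 and S26. Matches were found in 7 of the 10 sites called in all 8 lists and in 12 of the other 18. The Peg13 match and the S21 match, 507 bp upstream of the Ago2 start, held 3 CpG each, and S4 held 2. Of the other sites called in all 8 lists with a match, S1 and S3 held 1 each and S13, S16 and S22 held none. The matches of S18, S23 and S26 held none either.

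The strength of the 10 sites called in all 8 lists was then compared with limma on log2 fold enrichment, each library centred on its median over 36440 sites, with Benjamini-Hochberg adjustment over all of them. At day 4, 2 of the 10 sites differed between K20R and WT, beside 29.1% over the genome. At day 0, 3 of 10 differed, beside 26.0%. Both counts are near the genome background.

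The sites that differed at day 4 flank and lie in Kcnk9, and both were stronger in K20R. S4 had a fold enrichment of 19.5 and 18.6 in WT and 35.5 and 76.2 in K20R at day 4. The difference was 1.31 ± 0.21 (SE) on the log2 scale, with a limma adjusted p of 0.00163. S3, in a Kcnk9 intron at chr15:72516887-72517398, had 32.0 and 27.7 in WT and 46.2 and 92.7 in K20R, a difference of 1.00 ± 0.22 with a limma adjusted p of 0.00646. On fold enrichment the genotypes did not overlap at either site, and how many of all sites separate in this way was not counted.

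Fold enrichment divides the pileup by the local background, and that background differed between the genotypes at both sites. At S4 it was 2.43 and 2.43 in WT and 0.970 and 0.876 in K20R at day 4, and at S3 it was 2.44 and 2.43 in WT and 0.970 and 0.963 in K20R. The pileup of S4 was 66 and 63 in WT and 69 and 142 in K20R, and that of S3 was 109 and 94 in WT and 90 and 181 in K20R. On the pileup alone, the difference was 0.51 ± 0.21 at S4 (limma adjusted p = 0.103) and 0.23 ± 0.21 at S3 (limma adjusted p = 0.444). Neither passed, so the Kcnk9 calls depend on the measure.

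The background moved in the same manner at S16, between Trappc9 and Chrac1, at chr15:73068636-73069208. At day 0 its fold enrichment was 22.6 and 11.5 in WT and 54.5 and 52.8 in K20R, a difference of 1.28 ± 0.20 with a limma adjusted p of 0.00183. Its background was 2.36 and 2.48 in WT and 0.963 and 0.817 in K20R, and its pileup was 75 and 39 in WT and 106 and 95 in K20R. The pileup difference of 0.51 ± 0.19 did not pass (limma adjusted p = 0.135). At day 4 the order of the measures turned: the fold enrichment difference of 0.30 ± 0.20 did not pass (limma adjusted p = 0.266), whereas the pileup difference of 0.65 ± 0.19 did (limma adjusted p = 0.0403).

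S1, the leftmost site, was weaker in K20R at day 0 on both measures. Its fold enrichment was 9.5 and 7.29 in WT and 6.39 and 6.96 in K20R, a log2 difference of -0.77 ± 0.21 (limma adjusted p = 0.0201). Its pileup was 21 and 16 in WT and 10 and 11 in K20R, with a limma adjusted p of 0.0143. S14, in a Trappc9 intron, had a fold enrichment of 15.5 and 9.73 in WT and 9.41 and 5.73 in K20R at day 0, lower by a log2 difference of -1.20 ± 0.28 (limma adjusted p = 0.00937), and its pileup difference did not pass (limma adjusted p = 0.195). Background at S14 was 0.738 and 0.746 in WT and 1.44 and 1.44 in K20R at day 0. Of the 5 genotype calls, S1 at day 0 was the 1 that passed on both measures. Without centring the libraries, 3 of these calls no longer passed. S1 at day 0 moved from -0.77 to -0.32 (limma adjusted p = 0.663) and S14 at day 0 from -1.20 to -0.74 (limma adjusted p = 0.259), whereas S3 at day 4 had a difference of 1.14, above its 1.00 with centring (limma adjusted p = 0.113). With quantile normalization the same 3 calls were lost, at -0.21 for S1, -0.75 for S14 and 0.61 for S3, with limma adjusted p-values of 0.539, 0.0671 and 0.0552.

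Single libraries also decided some of these calls. S1 at day 0 no longer passed without WT replicate 2 (limma adjusted p = 0.101), K20R replicate 1 (limma adjusted p = 0.132) or K20R replicate 2 (limma adjusted p = 0.0734). S14 at day 0 no longer passed without K20R replicate 2 (limma adjusted p = 0.0991), and S3 at day 4 no longer passed without WT replicate 2 (limma adjusted p = 0.0641). The calls at S16 and S4 passed without any 1 of the 8 libraries. Leaving out a library of the other day cannot move the difference itself, only the estimate of the spread.

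The change of the genotype difference from day 0 to day 4 passed at S4, S14 and S16, 3 of 10 sites, beside 8.79% over the genome. The K20R minus WT difference in log2 fold enrichment was 0.13 at day 0 and 1.31 at day 4 at S4, -1.20 and 0.50 at S14, and 1.28 and 0.30 at S16. On the pileup none of the 3 passed, and no site of the window did. Of 13 alternatives, 2 kept the S4 call, 5 the S14 call and 3 the S16 call.

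**Figure D4:**
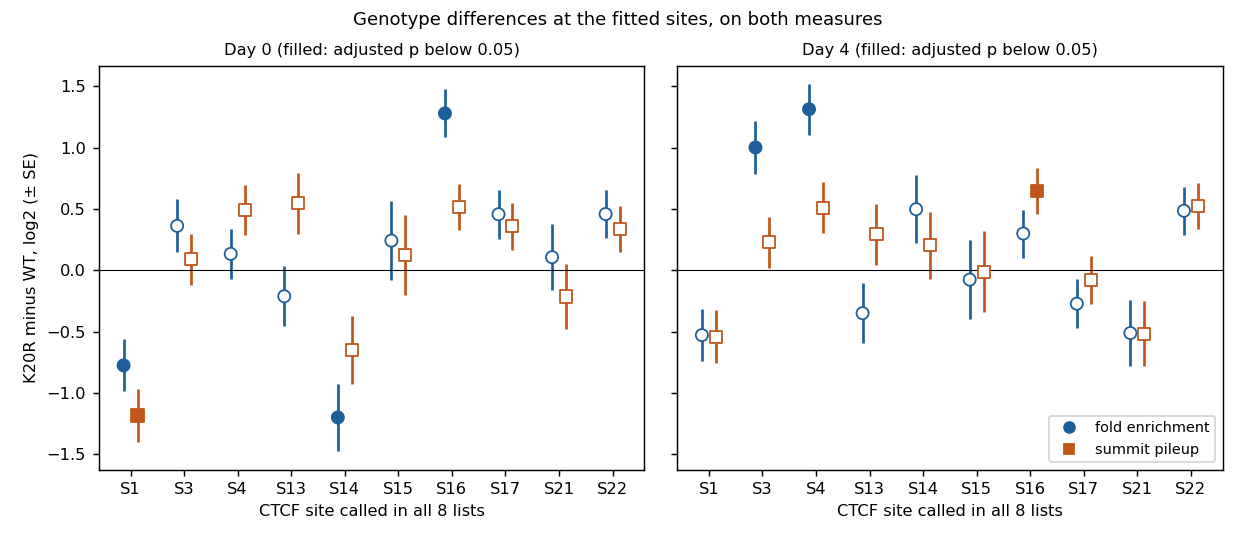
K20R minus WT differences in log2 units with standard errors at the 10 sites called in all 8 lists, on fold enrichment (circles) and on summit pileup (squares), at day 0 and day 4 (n = 2 libraries per group). Filled symbols have an adjusted p below 0.05; S3 and S4 at day 4 are filled for fold enrichment alone, and S1 at day 0 for both measures.

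Between the days, 5 of the 10 sites changed in WT, beside 21.4% over the genome, and 5 of 10 changed in K20R, beside 17.0%. S17, in an Ago2 intron, was weaker at day 4 in both genotypes. Its fold enrichment was 22.6 and 14.6 at day 0 and 10.8 and 11.95 at day 4 in WT, and 36.6 and 31.9 at day 0 and 9.14 and 11.7 at day 4 in K20R. The fall was 0.66 ± 0.20 on the log2 scale in WT (limma adjusted p = 0.0359) and 1.39 ± 0.20 in K20R (limma adjusted p = 0.00297). In K20R it also fell on the pileup, from 62 and 54 to 17 and 22 (limma adjusted p = 0.0117), and it passed under every alternative tried. In WT the pileup fell from 43 and 28 to 18 and 20, with a limma adjusted p of 0.0509. The WT call was lost without centring and without any 1 of 6 libraries. The difference between the genotypes in this change did not pass (log2 difference -0.73 ± 0.28, limma adjusted p = 0.122).

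S1 and S22 were stronger at day 4 in both genotypes on fold enrichment. At S1 the log2 difference was 0.70 ± 0.21 in WT (limma adjusted p = 0.0358) and 0.95 ± 0.21 in K20R (limma adjusted p = 0.0128). On the pileup it was 1.02 in K20R (limma adjusted p = 0.0333) and 0.37 in WT (limma adjusted p = 0.392), and 5 of 13 alternatives kept the WT call. S22, 2063 bp upstream of the Ago2 start, had 30.1 and 21.4 at day 0 and 42.2 and 42.1 at day 4 in WT, and 48.3 and 47.5 at day 0 and 49.4 and 85 at day 4 in K20R. The log2 differences were 0.75 ± 0.19 in WT (limma adjusted p = 0.0193) and 0.77 ± 0.19 in K20R (limma adjusted p = 0.0200). On the pileup neither S22 call passed, with limma adjusted p-values of 0.772 and 0.381, and background at S22 was 1.44 to 1.89 at day 0 and 0.741 to 0.781 at day 4. The other calls between days were S14 and S16 in WT and S3 and S4 in K20R. None of these 4 passed on the pileup, with limma adjusted p-values of 0.248, 0.591, 0.432 and 0.649, and none passed without centring. S3 kept its call in 4 of 13 alternatives.

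S13 in Trappc9, with S3 and S22 among the 3 sites of the highest mean fold enrichment, passed in no contrast. Its pileup was 85 and 78 in WT and 156 and 153 in K20R at day 0, and 96 and 71 in WT and 86 and 138 in K20R at day 4. Background at S13 was 0.831 and 0.840 in WT and 1.93 and 1.92 in K20R at day 0. The log2 difference of that day was 0.55 ± 0.25 on the pileup (limma adjusted p = 0.218) and -0.21 ± 0.24 on fold enrichment (limma adjusted p = 0.557). S21, 507 bp upstream of the Ago2 start at chr15:73185104-73185877, had 43 and 30 in WT and 17 and 43 in K20R at day 4 and passed in no contrast. Its log2 fold enrichment difference at day 4 was -0.51 ± 0.27 (limma adjusted p = 0.167). Within 3 kb of the Kcnk9, Trappc9 and Chrac1 start sites no CTCF summit was found.

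H3K27ac marked the promoters to the right of Peg13 in both genotypes. In the window, the WT list held 23 peaks and the K20R list 19, of which 10 in each overlapped a peak of the other. The 13 WT peaks without a counterpart (56.5%) and the 9 K20R peaks without a counterpart (47.4%) are read against the genome shares given above. The Chrac1 start had a fold enrichment of 7.06 in each genotype. The Ago2 start had 9.39 in WT and 6.79 in K20R, and its peak covered S20 and S21 in both. The Trappc9 start had 5.02 in WT and 3.91 in K20R. No H3K27ac peak lay within 3 kb of the Kcnk9 start in either list.

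CTCF sites other than these seldom carried the mark. A K20R peak at chr15:73066544-73068675, with a fold enrichment of 6.79, reached S16, while the WT peak there, at 6.64, ended at chr15:73068564, before the site began. A WT peak at chr15:73149074-73150080, with a fold enrichment of 3.74, overlapped S17 and had no K20R counterpart. Left of Kcnk9, both lists held a peak at the same place, with a fold enrichment of 3.49 in WT and 4.70 in K20R. With a −log10 q of at least 5, 4 WT and 5 K20R peaks were left in the window.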

How the data were processed

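CTCF ChIP-seq (8 libraries) and H3K27ac ChIP-seq (2 libraries) were used, and the 4 input samples had no list and were not analysed here. Trim Galore was used by the authors for trimming and Bowtie2 for alignment to mm10. Duplicates, poorly mapped reads and blacklisted regions were discarded, and CTCF libraries were subsampled to equal depth. MACS2 then gave 1 list for each library, with broad peaks for H3K27ac alone. The control set against each library and read counts per peak are not given in the sources used here. Each list deposited by the authors gives per peak a score (not used), a fold enrichment ratio, a −log10 p-value and a −log10 q-value.

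The members and gene lists were chosen with earlier results of these data known. From fold enrichment and −log10 p, a whole-number pileup and its local background were solved, matching within 0.01 for 100% of CTCF peaks in every list. Lists held 41360 to 77657 CTCF peaks. Sites called in all 8 lists were fitted with limma 3.58.1 (R 4.3.3) on log2 fold enrichment, centred per library, over 36440 sites in all 4 groups. On simulated data for the day 4 genotype contrast over 36440 sites, 68% of log2 differences of 1 and 100% of those of 2 were recovered. Far fewer sites were changed there than the 29.1% called in the data at day 4, so these rates need not carry over. Peak numbers were compared by exact permutation, and lost and gained sites and H3K27ac were counted without a test. A motif threshold passed by 5% of sequences shifted by 1 kb was used. Annotation was GENCODE M21 basic, and sequence was RefSeq GRCm38, the build of the lists. The promoter table used held none of the 5 genes.

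Named sites were the Peg13 start, every site lost or gained, every site past an adjusted p of 0.05, the site nearest each gene start within 3 kb and the 3 sites of highest mean fold enrichment. Named H3K27ac peaks were those at gene starts or on CTCF sites. S10, the H3K27ac peaks left of Kcnk9 and in the Trappc9 body, and the sequences printed were chosen after values were seen. Scripts ran in Python 3.11.15 with scipy 1.17.1 for the exact tests.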

Additional observations from a re-analysis of the deposited data

Results flagged for a closer look

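At 3 sites the K20R minus WT difference in log2 fold enrichment itself differed between day 4 and day 0 by the limma interaction term, beside 8.79% of sites over the genome. S4, upstream of Kcnk9, had an interaction of 1.18 ± 0.29 (SE, limma adjusted p = 0.0316), S14 in Trappc9 one of 1.70 ± 0.39 (limma adjusted p = 0.0251), and S16 between Trappc9 and Chrac1 one of -0.98 ± 0.28 (limma adjusted p = 0.0480). On the summit pileup the values were 0.02 at S4, 0.85 at S14 and 0.14 at S16, with limma adjusted p-values of 0.995, 0.742 and 0.957. At S4 local background was 2.36 to 3.37 in the day 0 libraries and in WT at day 4, and 0.876 to 0.970 in K20R at day 4. At S16 it was 2.36 and 2.48 in WT at day 0 and 0.817 to 1.45 elsewhere. At S14 it was 0.738 and 0.746 in WT and 1.44 and 1.44 in K20R at day 0. At day 4 the S14 background was 1.46 and 0.973 in WT and 0.757 and 0.717 in K20R. The background thus moved with the fold enrichment at all 3 sites.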

How the results depend on the processing

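The direction of the peak-number difference held under every alternative. It was smallest with lists of 1 length, at -0.5 peaks at day 0 and -2.5 at day 4. When 1 library was left out it was -3.0 to -6.0 at day 0 and -5.5 to -9.5 at day 4. Such an omission could not turn the sign, since the counts of the genotypes did not overlap. With the replicate block the difference was the same by construction, -4.5 at day 0 and -7.5 at day 4 (exact sign permutation p = 0.5, the smallest possible). Replicate numbers did not pair the libraries: correlations of same-numbered deviations between genotypes within a day were -0.03 and 0.03, while the highest of all 6 pairs of groups was 0.32, between WT at day 0 and K20R at day 4. The replicate block left all 5 window counts of limma calls at 3, 2, 5, 5 and 3. These counts are for K20R minus WT at day 0 and day 4, day 4 minus day 0 in WT and in K20R, and the interaction. In that order they were 1, 1, 0, 1 and 0 without centring and 1, 1, 0, 2 and 0 on the summit pileup. With quantile normalization they were 1, 3, 5, 3 and 2. Leaving out 1 library gave 1 to 3, 1 to 2, 0 to 5, 2 to 5 and 0 to 2. Over the genome, calls ran from 0 to 2820 for the interaction under the same omissions, against 3204 with all libraries. Without centring, the median difference of all sites was 0.43 at day 0 and 0.16 at day 4 (K20R minus WT), and 3184 of 3336 calls at day 0 were higher in K20R, against 4395 of 9475 with centring. The interaction at S16 turned to 0.14 on the summit pileup. For the 18 site calls of the 5 contrasts, 136 alternative fits kept the call, 97 kept the direction but did not pass, some of them with a difference as large as before, and 1 reversed. The cause was not tested. Some of these fits cannot move the difference itself, namely those with the replicate block and those without a library outside the contrast. The number that kept the call is to be read with that limit.

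Sites lost at day 0 numbered 1 and at day 4 numbered 2 with lists of 1 length, which also made S14 gained at day 4, 2 in all. With a −log10 q of at least 5, 1 site was gained at day 0. Leaving out 1 library gave 3 to 5 lost and 0 to 2 gained at day 0, and 4 to 9 lost and 1 to 3 gained at day 4. Such an omission can only keep or raise these counts, because fewer lists then have to meet the rule. With that q limit the window held 4 WT and 5 K20R H3K27ac peaks, 1 and 2 of them without a counterpart. With a motif threshold passed by 1% of shifted sequences, 7 of 28 sites held a match, against 39.8% of all sites. Depth was fixed by subsampling, and signal under a pileup of about 5 was not detectable.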
